A study of Mus musculus with 2 samples.

Results

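Transcripts of 9 tetraspanin genes were followed through cells sorted from adult mouse brain. They were *Cd81*, *Cd9*, *Cd37*, *Cd53*, *Cd63*, *Cd82*, *Cd151*, *Tspan3* and *Tspan4*, chosen by gene symbol from the 32285 genes of the deposited tables. Tetraspanins are small proteins that thread repeatedly through the membrane and gather integrins, receptors and proteases into membrane patches. Several of them are carried by extracellular vesicles. CD81 is found on many cell types, lymphocytes among them. CD9 takes part in the fusion of sperm and egg. CD37 and CD53 are tetraspanins of white blood cells. CD63 sits in late endosomes, lysosomes and the azurophil granules of neutrophils. CD82 is known as a metastasis suppressor, CD151 binds laminin-binding integrins, and TSPAN4 marks migrasomes, the vesicles left behind by migrating cells. Of the 9 genes, *Cd81* gave the most transcripts in microglia, and *Cd9*, *Cd63* and *Cd53* were the members with the most transcripts in LI/LI neutrophils.

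Brain cells of 6 *Disc1* WT/WT and 6 *Disc1* LI/LI male littermates, 23 weeks old, were pooled by genotype and sequenced as 1 library per genotype. LI/LI mice are homozygous for a *Disc1* allele named locus impairment, which is present in all tissues and not in microglia alone. In both groups actinomycin D, an inhibitor of transcription, was present during dissociation, and the sort collected CD11b+ cells of low CD45. Which of 2 droplet chips held which library is not given in the sources used here. The WT/WT library held 33601957 unique molecular identifiers (UMIs, tags that count each captured transcript once) over 7038 barcodes, and the LI/LI library held 47731571 over 7834. The libraries shared 12 barcodes. *Disc1* had 642 UMIs in WT/WT, or 19.1 per 1000000 UMIs of the library (UPM), and 22 UMIs in LI/LI, or 0.461 UPM.

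Barcodes under 200 genes or over 10% mitochondrial UMIs were dropped, which left 7032 WT/WT and 7817 LI/LI cells. Cells were called microglia when *P2ry12*, *Gpr34*, *Tmem119*, *Siglech*, *Fcrls* and *Olfml3* together made up at least 0.5% of their UMIs with *S100a8* and *S100a9* under 1%, and neutrophils when *S100a8* and *S100a9* made up at least 3%. WT/WT had 6180 microglia (87.9% of cells), 116 neutrophils (1.65%) and 736 other cells (10.5%). LI/LI had 1950 (24.9%), 3622 (46.3%) and 2245 (28.7%). The label of both samples, microglia, therefore held for most WT/WT cells and for a minority of LI/LI cells. Genes that the gates did not use bore out the classes. *Cx3cr1*, *Sall1* and *Csf1r* were each higher in microglia than in neutrophils of the same library, and *Ngp*, *Camp*, *Ltf*, *Retnlg*, *Lcn2* and *Csf3r* were each higher in neutrophils. Transcripts of the other class were nonetheless present. *Camp*, a neutrophil granule gene, was detected in 1.60% of WT/WT and 43.8% of LI/LI microglia, and *C1qa*, a complement gene of microglia, in 49.1% of WT/WT and 30.9% of LI/LI neutrophils. Within 0.1 percentage points of the microglia threshold lay 293 WT/WT and 164 LI/LI cells.

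Both promoters shown here belong to genes that take different patterns across the classes below, *Cd81*, led by microglia, and *Cd53*, which was present in every class and finer gate. They were read from RefSeq (GRCm38.p6), which gave 14 promoter windows for the 9 genes, from 250 bases before to 50 after each start. *Cd81* lies on chr7:143052739-143067934 (plus strand) and *Cd53* on chr3:106759921-106790149 (minus strand) in GENCODE M21. Both stretches run 5′ to 3′ along the gene from 250 bases before the start to 30 bases into the transcript, chr7:143052500-143052779 and chr3:106790120-106790399. Capitals mark GGGCGG, the GC box, in *Cd81* and GAGGAA, the core of PU.1 sites, in *Cd53*, on either strand.
Cd81: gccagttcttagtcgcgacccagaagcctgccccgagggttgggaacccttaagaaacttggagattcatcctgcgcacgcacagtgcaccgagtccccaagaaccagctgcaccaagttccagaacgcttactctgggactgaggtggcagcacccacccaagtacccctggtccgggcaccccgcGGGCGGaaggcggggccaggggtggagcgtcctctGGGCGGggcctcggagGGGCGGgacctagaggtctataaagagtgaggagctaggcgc
Cd53: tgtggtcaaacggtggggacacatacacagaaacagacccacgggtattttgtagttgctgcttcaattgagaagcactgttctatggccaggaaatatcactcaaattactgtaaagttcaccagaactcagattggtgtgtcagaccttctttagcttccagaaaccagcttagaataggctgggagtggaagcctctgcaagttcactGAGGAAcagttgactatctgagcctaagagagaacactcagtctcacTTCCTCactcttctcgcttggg
The *Cd81* window held GGGCGG 3 times and no GAGGAA, and the *Cd53* window held GAGGAA 2 times, once on the opposite strand, and no GGGCGG. Of all 32851 windows, 35.7% held GGGCGG and 28.3% held GAGGAA, so neither match is rare. Among the other members, the first windows of *Cd9*, *Cd82*, *Cd151* and *Tspan4* held GGGCGG only, that of *Cd63* GAGGAA only, that of *Cd37* both and that of *Tspan3* neither. A match of letters does not show that a factor binds.

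In microglia, *Cd81* reached 3276 UPM in WT/WT (95% exact Poisson interval 3255 to 3297) and 3814 UPM in LI/LI (3771 to 3856). *Cd9* followed with 1472 and 1564 UPM. *Cd53* gave 585 and 579 UPM, *Cd37* 499 and 556 UPM, and *Cd63* 476 and 479 UPM. The remaining members were lower, *Tspan3* at 148 and 136 UPM, *Tspan4* at 98.1 and 100.2 UPM, *Cd82* at 70.5 and 79.3 UPM and *Cd151* at 70.0 and 79.4 UPM. The order was the same in both libraries down to *Tspan4*. *Cd82* and *Cd151* had overlapping intervals in each library, as did *Cd53* and *Cd37* in LI/LI. Counting was at the 3′ end, where a transcript gives 1 tag whatever its length, so these levels were not divided by length. Intervals cover counting error only.

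**Figure D1:**
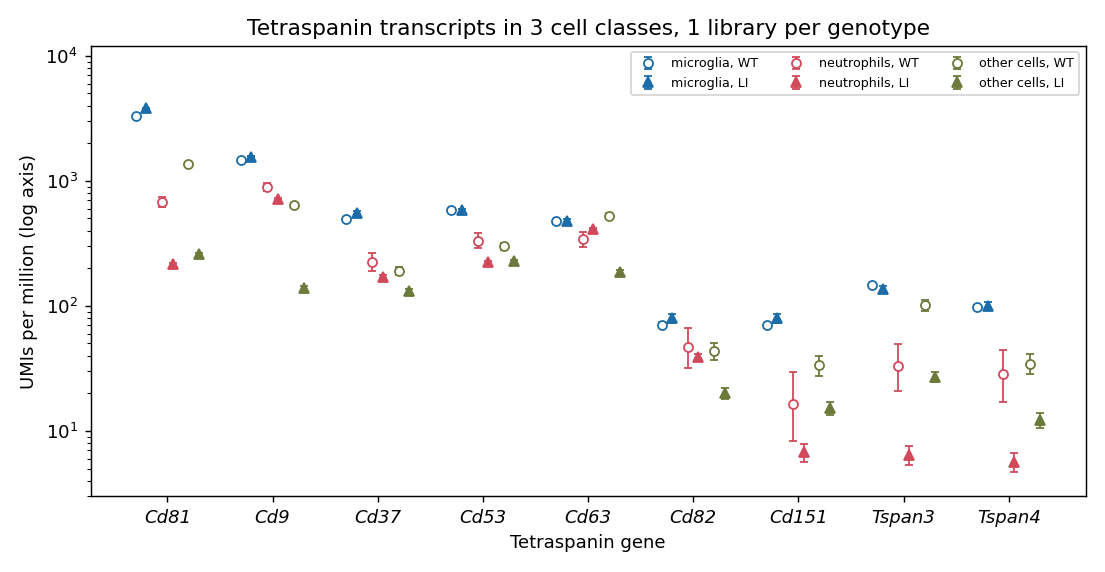
UPM (log axis) of each tetraspanin gene in microglia, neutrophils and other cells, with open circles for the WT/WT library and filled triangles for the LI/LI library; bars are 95% exact Poisson intervals for counting error. *Cd81* in microglia lies highest, at 3276 and 3814 UPM. *Cd63* in LI/LI neutrophils, at 412 UPM over summed UMIs, lies close to its microglial level of 479 UPM. With every cell thinned to the same number of UMIs, these *Cd63* levels were further apart, at 270 and 488 UPM.

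Nearly every microglial cell held *Cd81*. At least 1 UMI was found in 99.5% of WT/WT microglia (exact binomial interval 99.3 to 99.7) and 99.7% of LI/LI microglia (99.4 to 99.9), at median depths of 4271 and 3787.5 UMIs per cell. When every cell was thinned to 1000 UMIs, with 104 and 17 shallower microglia left out, the shares were 94.9% and 96.4%. *Cd9* was found in 96.8% and 96.6% of microglia, or 71.3% and 73.7% when thinned. The shares for *Cd53* were 89.2% and 86.5%, for *Cd37* 84.3% and 85.0%, and for *Cd63* 74.9% and 72.1%. *Cd82*, *Cd151*, *Tspan3* and *Tspan4* were found in between 26.8% and 47.1% of microglia, and in between 6.42% and 13.8% when thinned. At 1000 UMIs a typical microglial cell held UMIs of 3 of the 9 genes, and 67.9% (WT/WT) and 71.0% (LI/LI) held both *Cd81* and *Cd9*. Only 16 of 6076 thinned WT/WT microglia and 5 of 1933 LI/LI microglia held none of the 9.

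From cell to cell within microglia, the thinned counts of most members spread little more than counting alone gives, which would make the variance equal to the mean. The ratio of variance to mean was 1.21 and 1.28 for *Cd81* (WT/WT and LI/LI) around medians of 3 and 4 UMIs. It was 1.39 and 1.50 for *Cd9* and 1.28 and 1.30 for *Cd63*. For *Cd37*, *Cd53*, *Cd82*, *Cd151*, *Tspan3* and *Tspan4* it lay between 0.987 and 1.06. *Cd9* had the highest ratio in microglia of both libraries. At low mean counts this ratio is drawn towards 1, so genes of unlike level cannot be ranked by it.

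The levels of microglia and neutrophils were compared over UMIs summed by class and library. The classes of a library come from the same mice, so the library was kept as a block, and the 2 libraries, which differ in genotype, served as the only replicates. *Cd81*, *Cd151*, *Tspan3* and *Tspan4* were higher in microglia. *Cd81* fell from 3276 UPM in microglia to 674 UPM in neutrophils of WT/WT, and from 3814 to 215 UPM in LI/LI, a log2 difference of 2.34 (SE 0.53, edgeR quasi-likelihood, Benjamini-Hochberg adjusted p = 5.85e-04). *Cd151* went from 70.0 to 16.5 UPM and from 79.4 to 6.72 UPM (log2 difference 1.89, SE 0.37, edgeR adjusted p = 1.09e-04). *Tspan3* went from 148 to 33.0 UPM and from 136 to 6.39 UPM (2.42, SE 0.39, edgeR adjusted p = 5.51e-06). *Tspan4* went from 98.1 to 28.5 UPM and from 100.2 to 5.61 UPM (2.12, SE 0.39, edgeR adjusted p = 4.02e-05). The class levels did not overlap between the libraries in these 4 genes, nor in any other member, so this does not set them apart. How many of all genes were alike in this was not counted.

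These 4 of 9 members stand against 21.4% of 12979 genes called higher in microglia and 21.2% called lower. No member was called lower. The median log2 difference was 0.41 over the members and 0.19 over all genes tested. The WT/WT library alone gave log2 differences of 1.66 for *Cd81*, 1.41 for *Cd151*, 1.52 for *Tspan3* and 1.13 for *Tspan4*, and the LI/LI library alone gave 2.78, 2.19, 3.03 and 2.79, values with no test. Without the library term the adjusted p of *Cd81* was 0.0729 (edgeR), with a log2 difference of 2.19.

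The other 5 members did not pass. *Cd9* had 1472 and 893 UPM in microglia and neutrophils of WT/WT, and 1564 and 715 UPM in those of LI/LI (log2 difference -0.11, SE 0.48, edgeR adjusted p = 0.872). *Cd63* had 476 and 340 UPM in WT/WT, and 479 and 412 UPM in LI/LI (-0.76, SE 0.43, edgeR adjusted p = 0.161). *Cd53* had 585 and 333, then 579 and 223 UPM (0.10, SE 0.37, edgeR adjusted p = 0.853). *Cd37* had 499 and 226, then 556 and 172 UPM (0.41, SE 0.36, edgeR adjusted p = 0.370). *Cd82* had 70.5 and 46.5, then 79.3 and 38.7 UPM (-0.25, SE 0.34, edgeR adjusted p = 0.578). All 5 were higher in microglia in UPM in both libraries, yet the fitted differences of *Cd9*, *Cd63* and *Cd82* were below 0, because TMM scaling, which aligns the bulk of the genes, set factors from 0.487 for LI/LI neutrophils to 1.41 for WT/WT microglia. With plain library totals, an alternative added after seeing the data, *Cd37* (log2 difference 1.44, edgeR adjusted p = 0.00316) and *Cd53* (1.10, edgeR adjusted p = 0.00648) passed as well, which made 6 of 9. That scaling also moved the share of all calls that were higher in microglia from 50.3% to 82.6%.

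The level left in neutrophils was then set against that of genes made by microglia. In WT/WT neutrophils, *Cx3cr1*, *C1qa*, *Csf1r* and *Ctss* stood at 20.3% to 21.9% of their microglial level, and in LI/LI neutrophils at 3.72% to 4.96%. *Cd81* stood at 20.6% (18.7 to 22.6) and 5.65% (5.47 to 5.82). *Tspan3* stood at 22.3% and 4.71%, *Tspan4* at 29.0% and 5.59%, and *Cd151* at 23.6% and 8.46%. *Tspan3* and *Tspan4* lay in or near the range of the microglial genes in both libraries. *Cd81* lay within that range in WT/WT. In LI/LI it lay above the range, with an interval also above that of *Csf1r* (4.73 to 5.20), the highest of these genes. *Cd151* lay above the range in LI/LI too (interval 7.02 to 10.1). The other members lay well above it in both, with *Cd9* at 60.7% and 45.7%, *Cd37* at 45.3% and 30.8%, *Cd53* at 56.9% and 38.4%, *Cd63* at 71.5% and 86.0%, and *Cd82* at 65.9% and 48.9%. The percentages of *Cd63* rest on UMIs summed over cells. In thinned cells *Cd63* was at 191 UPM in neutrophils and 474 UPM in microglia of WT/WT. In those of LI/LI it was at 270 and 488 UPM.

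Neutrophils with under 0.1% of UMIs from the 6 microglia markers were also taken alone, a gate added after seeing the data that left 89 WT/WT and 3444 LI/LI cells. There the microglial genes fell to 1.07% to 2.52% of their microglial level in WT/WT and to 0.569% to 1.61% in LI/LI. *Cd81* fell to 3.85% (2.86 to 5.08) and 2.87% (2.75 to 3.00), above the range of these genes, though in WT/WT its interval overlapped that of *Csf1r* (1.54 to 3.90). *Cd9* kept 49.2% and 43.8%, *Cd37* 34.4% and 28.7%, *Cd53* 53.1% and 36.6%, *Cd63* 59.9% and 86.2%, and *Cd82* 75.2% and 47.9%. *Cd151* was at 3.61% (0.0913 to 20.1) and 6.42%, *Tspan3* at 3.41% (0.413 to 12.3) and 1.73%, and *Tspan4* at 10.3% (2.80 to 26.4) and 1.94%. The wide WT/WT intervals come from the few UMIs of these genes in 89 cells. With this gate the same number of members, 4, was called higher in microglia than in neutrophils.

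**Figure D2:**
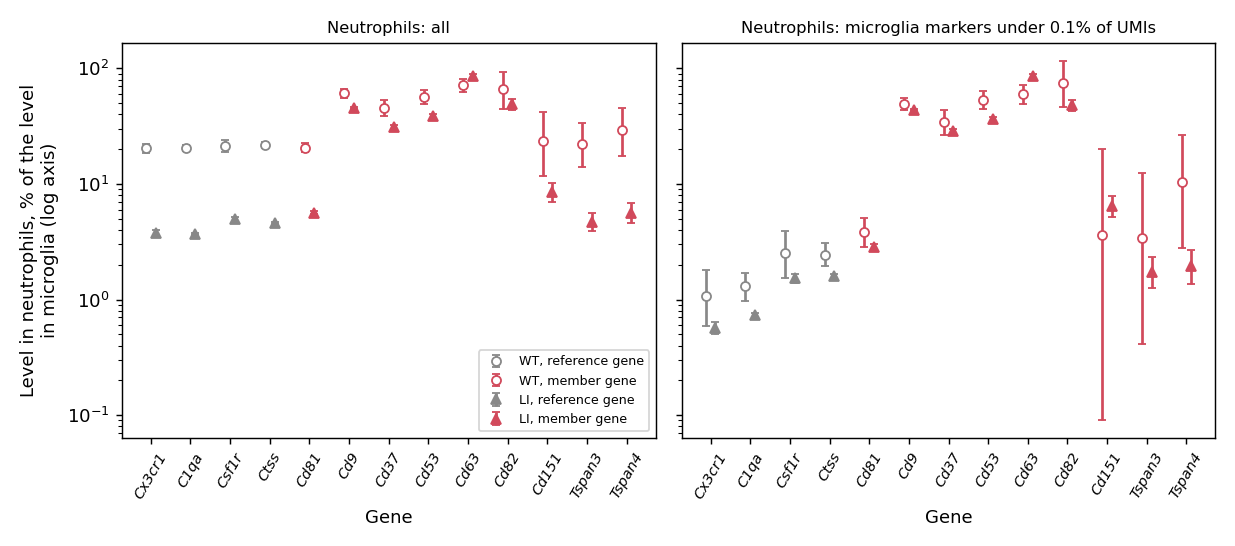
Level of each gene in neutrophils as a percent of its level in microglia of the same library (log axis), for 4 microglial reference genes in grey and the 9 tetraspanin genes in red, with open circles for WT/WT and triangles for LI/LI; bars are 95% counting intervals. On the left all neutrophils are used, and *Cd81* lies among the reference genes in WT/WT at 20.6% and above them in LI/LI at 5.65%. On the right, with microglia markers under 0.1%, *Cd9* at 49.2% and 43.8% lies far above *Cd81* at 3.85% and 2.87%.

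By share of cells with a UMI, *Cd9* was found in 90.5% of WT/WT and 91.7% of LI/LI neutrophils, at median depths of 4844.5 and 4194 UMIs, and in 49.6% and 53.1% when thinned. *Cd81* was found in 44.8% and 31.4%, or 20.9% and 9.95% when thinned. *Cx3cr1*, whose WT/WT microglial level of 3301 UPM lies near that of *Cd81*, was found in 32.8% and 11.5% of neutrophils, or 20.0% and 4.45% when thinned. The part of microglial transcripts in the *Cd81* share was not tested. In LI/LI neutrophils the shares were 68.5% for *Cd53*, 57.9% for *Cd63*, 52.3% for *Cd37* and 20.1% for *Cd82*, and 3.70% for *Cd151*, 2.87% for *Tspan3* and 2.73% for *Tspan4*.

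LI/LI neutrophils held cells at several steps of maturation, and here the members went different ways in UPM. Neutrophils were split by their granule genes, a split chosen after seeing the data. The 52 cells with at least 0.5% of UMIs from the azurophil genes *Elane*, *Mpo*, *Prtn3* and *Ctsg* are the granule-making early cells. The others were split by *Ngp*, *Camp* and *Ltf*, genes of later granules, into 1394 cells with at least 2%, 979 with 0.1 to 2% and 1197 with less. *Cd63* was at 1409 UPM (1351 to 1469) in the azurophil cells, then at 412 UPM, 213 UPM and 181 UPM (167 to 195) in the cells with least granule transcript. *Cd9* ran the other way, with 309 UPM (282 to 338), 654 UPM, 886 UPM and 933 UPM (901 to 966). *Cd53* went from 83.9 UPM to 186, 282 and 354 UPM, and *Cd82* from 14.6 UPM to 25.9, 56.8 and 76.8 UPM. For these 4 genes the intervals at both ends did not overlap. The intervals cover counting error in 1 library, and how many of all genes had such ends was not counted. *Cd81* showed no such order, with 275, 196, 159 and 326 UPM, though its ends did not overlap either (249 to 302 and 307 to 346). Each of the 52 azurophil cells held a UMI of *Cd81*, as of *Cd9*, *Cd37* and *Cd63*, at a median depth of 30780.5 UMIs. Median depths of the later groups were 7466, 3637 and 2439 UMIs, and UPM are shares of these falling totals. By share of cells with a UMI, *Cd9* went down, with 100%, 98.0%, 92.7% and 83.0%. From the first to the last group that share also went down for *Cd53*, from 88.5% to 59.0%, and *Cd82*, from 34.6% to 18.8%. *Cx3cr1*, of microglia, was at 19.1, 79.7, 116 and 238 UPM across the same groups. The part of microglial transcripts in the levels of the last group was not tested. WT/WT had only 1 azurophil neutrophil. Its 45, 23 and 47 further neutrophils had 331, 207 and 316 UPM of *Cd63*, in which the order seen in LI/LI did not recur, and 854, 958 and 941 UPM of *Cd9*.

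**Figure D3:**
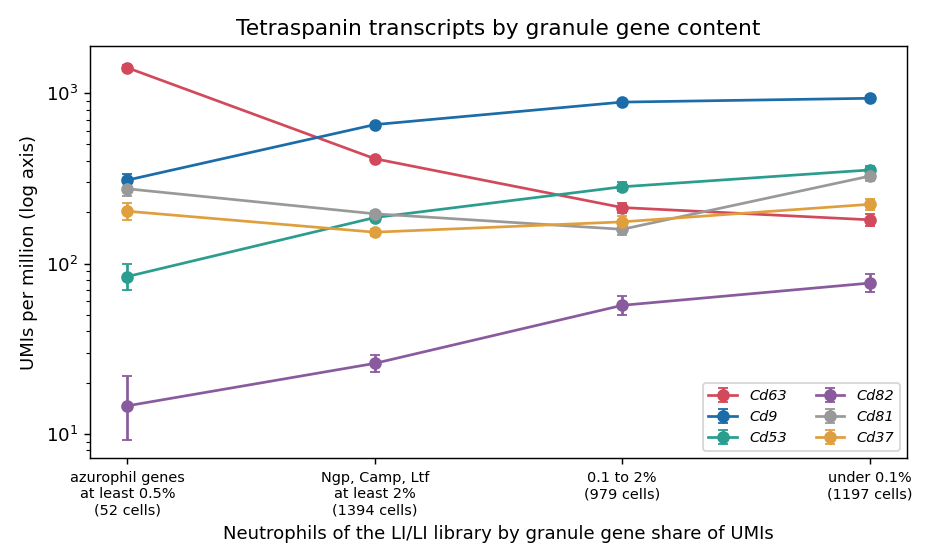
UPM (log axis) of 6 tetraspanin genes in LI/LI neutrophils grouped by granule gene content, from azurophil cells on the left to cells with under 0.1% of *Ngp*, *Camp* and *Ltf* on the right; bars are 95% exact Poisson intervals. *Cd63* goes down from 1409 to 181 UPM while *Cd9* goes up from 309 to 933 UPM.

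Against the other cells, 7 of 9 members were higher in microglia and none lower, beside 13.6% of 12979 genes called higher and 19.1% called lower. They were *Cd81*, with 1358 UPM in other cells of WT/WT and 258 UPM in those of LI/LI (log2 difference 2.31, SE 0.55, edgeR adjusted p = 0.00109), *Cd9*, with 639 and 139 UPM (1.93, SE 0.52, edgeR adjusted p = 0.00358), *Cd37*, *Cd82*, *Cd151*, *Tspan3* and *Tspan4*. The log2 differences of the last 5 were 1.47, 1.07, 1.49, 1.24 and 2.08. *Cd53* (299 and 228 UPM, log2 difference 0.90, SE 0.37, edgeR adjusted p = 0.0611) and *Cd63* (524 and 187 UPM, 0.24, SE 0.43, edgeR adjusted p = 0.719) did not pass. *Cd63* in WT/WT was the only level, of the 9 genes in both libraries, at which other cells stood above microglia. In the 317 WT/WT other cells with microglia markers under 0.1%, the gate added after seeing the data, *Cd63* was below microglia. It was at 264 UPM there, or 55.4% of its microglial level (50.3 to 61.0). The members' median log2 difference was 1.47 and that of all genes tested 0.07. With library totals, *Cd53* also passed (log2 difference 1.16, edgeR adjusted p = 0.0125), and 54.2% of all calls were higher in microglia in place of 41.6%.

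This comparison rested on how the classes were set. Without the library term only *Cd151* was called, 1 of 9, with 437 genes higher and 1418 lower in place of 1769 and 2484. With stricter gates, which move the microglia with fewest marker transcripts into the other cells, only *Tspan4* was called. DESeq2 ended the calls of *Cd82* (adjusted p = 0.0713) and *Tspan3* (adjusted p = 0.0858) and added *Cd53* (adjusted p = 0.00451). The difference of *Cd81* was 1.12 in WT/WT alone and 3.53 in LI/LI alone, that of *Cd9* 1.05 and 3.14, that of *Tspan3* 0.40 and 1.98, that of *Cd82* 0.55 and 1.64, that of *Cd151* 0.91 and 2.03 and that of *Tspan4* 1.35 and 2.69.

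The other cells were a mixture, and finer gates on genes outside the family showed where the members lay. Border macrophages (*Mrc1*, *Pf4*, *Cbr2*, *Lyve1* and *Cd163*; 87 WT/WT cells) had the most *Cd63* of the finer gates, 1539 UPM (1397 to 1691), against 476 UPM in microglia of that library, and little *Cd9*, 100.2 UPM (66.6 to 145) against 1472 UPM. B cells (102 LI/LI cells) had 781 UPM of *Cd37* (705 to 863), above the 556 UPM of microglia, and 862 UPM of *Cd81* beside 209 UPM of the microglial gene *Cx3cr1*. Granulocyte progenitors (69 LI/LI cells) had 671 UPM of *Cd63* (636 to 707), 68.0 UPM of *Cd9* and 98.3 UPM of *Cd53*. Their order of *Cd63* over *Cd9* was that of the azurophil neutrophils, which were gated on the same azurophil genes at the same share. The progenitors are such cells under the neutrophil threshold for *S100a8* and *S100a9*, so the groups are not independent.

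The monocytes separated by *Cd9*. Nonclassical monocytes, which patrol vessels, had 828 UPM (658 to 1029) in 33 WT/WT cells and 436 UPM (341 to 550) in 64 LI/LI cells. Classical monocytes had 62.3 UPM (33.1 to 106) in 23 WT/WT cells and 27.5 UPM (23.4 to 32.1) in 704 LI/LI cells. The intervals did not overlap in either library. *Cd82* was at 112 and 86.1 UPM in nonclassical and 33.5 and 11.4 UPM in classical monocytes, with intervals that overlapped in WT/WT, where it had 11 and 7 UMIs, and not in LI/LI. Classical monocytes also had the least *Cd81* of the gates, 95.8 UPM in WT/WT and 42.6 UPM (37.5 to 48.2) in LI/LI. *Cd63* was at 4.79 UPM there in WT/WT (1 UMI, interval 0.121 to 26.7) and at 12.4 UPM in LI/LI. Nonclassical monocytes of LI/LI had 0 UMIs of *Cd63* among 162692, which allows up to 18.4 UPM. *Cd53* varied less between the monocytes of LI/LI, with 238 UPM in the classical and 387 UPM in the nonclassical gate. T cells (46 and 76 cells) had 789 and 762 UPM of *Cd81*, with 481 and 433 UPM of *Cx3cr1*, and the part of microglial transcripts in that level was not tested. NK cells (44 LI/LI cells) had 131 UPM of *Cd82*. Of the other cells, 264 in WT/WT and 825 in LI/LI passed no finer gate.

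**Figure D4:**
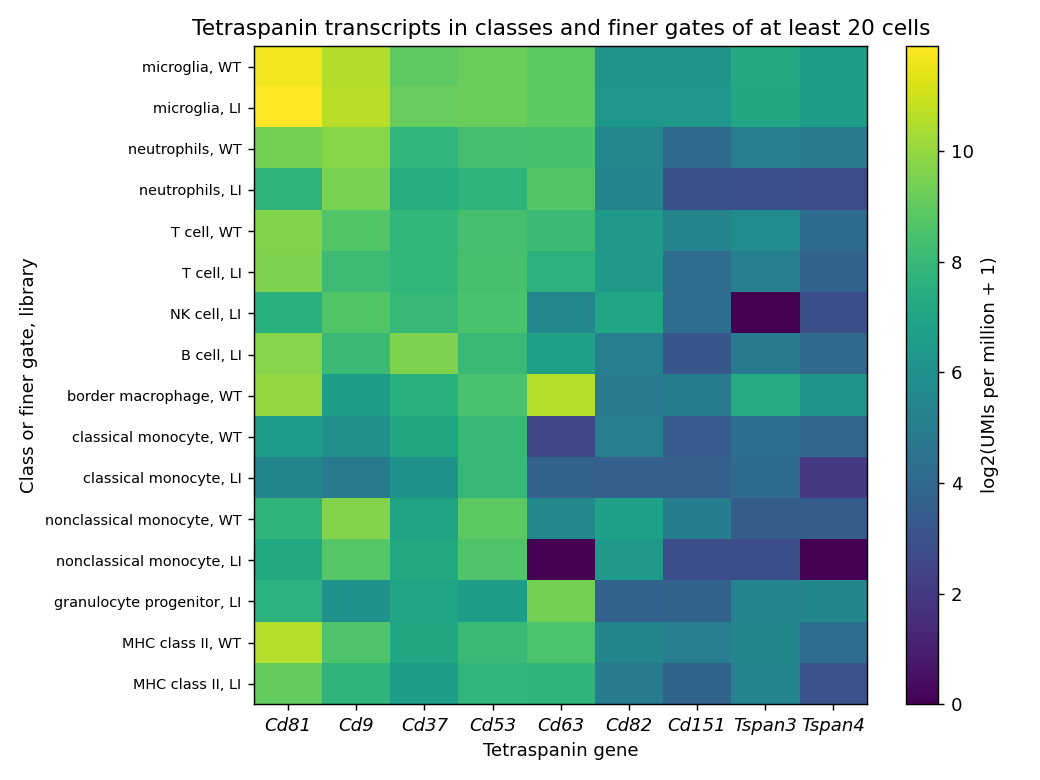
Colour gives log2(UPM + 1) of each tetraspanin gene (columns) in microglia, neutrophils and the finer gates of the other cells with at least 20 cells in a library (rows, WT and LI separately). *Cd63* is brightest in border macrophages at 1539 UPM, *Cd9* separates nonclassical from classical monocytes, and *Cd53* runs from 98.3 UPM in granulocyte progenitors to 585 UPM in WT/WT microglia.

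Between the genotypes, the members differed little in microglia. With 1 library per genotype no test was possible, and ratios carry counting intervals only. *Cd81* was 1.16-fold in LI/LI relative to WT/WT, a log2 ratio of 0.22 (Clopper-Pearson interval 0.20 to 0.24). *Cd151* (0.18), *Cd82* (0.17), *Cd37* (0.16) and *Cd9* (0.09) also had intervals above 0. *Tspan3* was at -0.13 (-0.22 to -0.030), and *Tspan4* (0.03), *Cd63* (0.01) and *Cd53* (-0.014) had intervals that included 0. None of the 9 passed a natural log ratio of 0.25, which 4.92% of 3556 genes passed upwards and 31.3% downwards. The study states that size, with a Wilcoxon test over cells, for comparing a cluster with all other clusters. For LI/LI against WT/WT its figure legend gives a threshold on the adjusted p and names no fold size. Here the size was set on ratios of pooled UPM between the genotypes. *Cd81* is among the examples the study gives of its most significant genes in LI/LI microglia. The members' median log2 ratio was 0.09 and that of all genes -0.12. TMM scaling adds 0.13 to each ratio in microglia, 0.54 in neutrophils and 0.48 in other cells, and it put all 9 members above 0 in microglia, *Tspan3* at 0.0065. With it *Cd81* was at 0.351 in microglia, just under the fold size, which is 0.361 in log2. Ratios in microglia also went down with gene length, with medians of 0.20, -0.0010, -0.26 and -0.47 across 4 equal groups of genes from the shortest to the longest. *Cd37* and *Cd151* fell in the shortest group, *Cd81*, *Cd63* and *Tspan4* in the next, *Cd9*, *Cd53*, *Cd82* and *Tspan3* in the third, and none in the longest. Whether length plays a part in the members' ratios was not tested.

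In neutrophils *Cd81* was at 674 UPM in WT/WT and 215 UPM in LI/LI, a log2 ratio of -1.65 (-1.79 to -1.51). *Tspan3* (-2.37), *Tspan4* (-2.34) and *Cd151* (-1.29) were also lower in LI/LI. Over the same cells *Cx3cr1* went from 671 to 107 UPM, and the part of microglial transcripts in these ratios was not tested. *Cd53* (-0.58), *Cd37* (-0.40) and *Cd9* (-0.32) were lower by less, *Cd82* (-0.26) had an interval that included 0, and *Cd63* (0.28, 0.087 to 0.47) was higher. The 52 azurophil neutrophils of LI/LI gave 2218 of its 8895 *Cd63* UMIs in this class, and WT/WT had 1 such cell. The part of this makeup in the *Cd63* ratio was not tested. Of 5 members with at least 50 UPM, 3 passed the fold downwards and none upwards, beside 49.7% of 2433 genes downwards and 11.8% upwards. In neutrophils with microglia markers under 0.1%, the ratio of *Cd81* was -0.21 and that of *Cd63* 0.53. TMM scaling turned *Cd9* to 0.22, *Cd37* to 0.14 and *Cd82* to 0.28.

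In the other cells all 9 were lower in LI/LI, from -2.39 for *Cd81* and -2.20 for *Cd9* to -0.39 for *Cd53*, with every interval below 0. Of 3256 genes, 48.8% were higher in LI/LI there. All 6 members with at least 50 UPM passed the fold downwards, beside 36.4% of 3256 genes downwards and 29.0% upwards. TMM scaling turned *Cd53* to 0.089. The makeup of the other cells differed between the libraries, with 704 cells in the classical monocyte gate in LI/LI and 23 in WT/WT, and 17 and 87 in the border macrophage gate. The genotype and the makeup of the other cells cannot be told apart in this class.

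**Figure D5:**
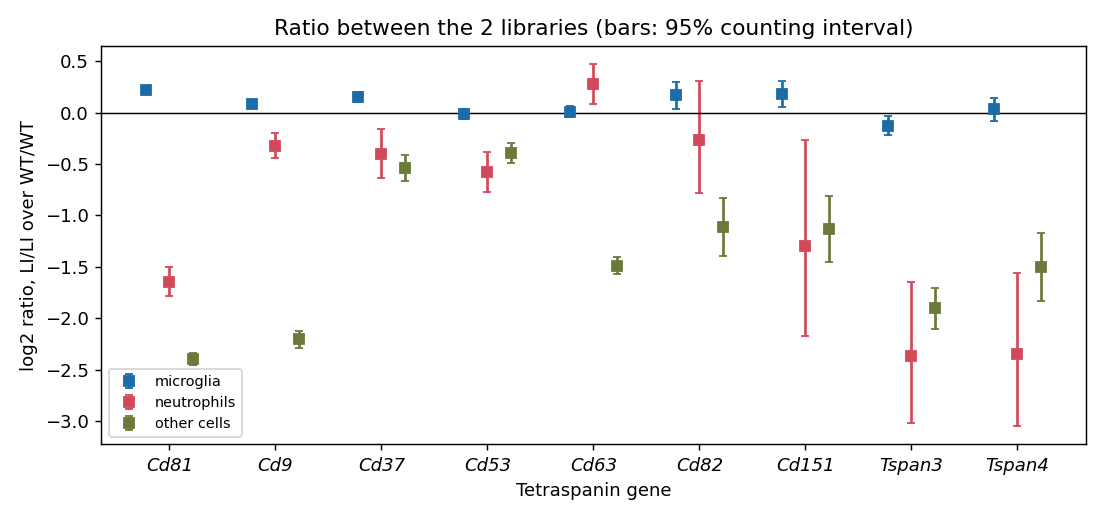
Log2 ratio of UPM, LI/LI over WT/WT, for each tetraspanin gene in microglia (blue), neutrophils (red) and other cells (green); bars are 95% counting intervals. Ratios in microglia lie between -0.13 and 0.22, while *Cd81* lies at -1.65 in neutrophils and -2.39 in other cells.

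Of 21 further tetraspanin genes, 5 reached 50 UPM in a class. Of these, 4 were higher in microglia than in neutrophils, none lower, and 1 did not pass. *Upk1b*, a uroplakin, had 80.5 and 116.8 UPM in microglia (WT/WT and LI/LI) and 8.99 and 3.43 UPM in neutrophils (log2 difference 3.28, SE 0.43, edgeR adjusted p = 1.88e-07). *Tspan7* (log2 difference 2.70), *Tspan31* (2.10) and *Tspan14* (0.97), a regulator of the protease ADAM10, were also higher, and *Tspan13* was at 0.51 (edgeR adjusted p = 0.213). Against other cells 4 of the 5 were higher, and *Tspan31* did not pass.

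The partners of tetraspanins were divided. Of 24 listed partner genes 18 reached 50 UPM in a class, of which 6 were higher in microglia than in neutrophils, 7 lower and 5 not past the test, with a median log2 difference of -0.73. *Cd44*, the hyaluronan receptor, had 1.40 and 6.49 UPM in microglia and 280 and 226 UPM in neutrophils (log2 difference -7.35, SE 0.48, edgeR adjusted p = 1.48e-14). *Ifitm1*, an interferon-induced membrane protein (-7.29), *Itgal*, the integrin alpha chain of LFA-1 (-6.23), and *Itga4*, that of VLA-4 (-3.37), were lower in microglia too. Against other cells 5 partners were higher, 6 lower and 7 not past the test, with a median of -0.07. *Clec7a* was not analysed here.

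The genes most like 4 of the members were sought over 18 sums of a class or finer gate in a library, among 6058 genes with at least 50 UPM in 1 sum or more. For *Cd81* they were *Siglech*, a gene of the microglia gate (Pearson r 0.96), and the complement genes *C1qb* (0.96) and *C1qa* (0.95). For *Cd9* they were *Csmd3* (0.89), *Mylip* (0.85) and *Dennd4a* (0.85), and for *Cd53* *Pcmtd2* (0.91), *Ssh2* (0.91) and *Rhoq* (0.89). The closest genes to *Cd37* were less alike, *Gm4258* (0.83), *Sparc* (0.80) and *Stambpl1* (0.79). *Cd81* and *Cd9* had an r of 0.66. Sums of a library share its depth and its free RNA, so these are descriptions only.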

How the data were processed

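The deposited values are raw UMI counts, 1 per gene and barcode, which the authors produced with Cell Ranger (version 6.1.2 per the file headers) and STAR on mm10. Members, gene lists and gates were chosen with earlier results of these data known. Classes were gated on the counts as described, doublets were not removed, and counts were summed per class and library. Genotypes were compared as log2 ratios of UPM with no test, since cells are not replicates. Classes were tested with edgeR 4.0.16 (quasi-likelihood, TMM, filterByExpr, Benjamini-Hochberg over 12979 genes, adjusted p under 0.05), without the gate genes and with the library as a block, because all classes of a library come from the same pooled mice. The 6 sums leave 2 residual degrees of freedom. The script was tested on simulated data. Named genes were all members, up to 4 genes of each list with the largest difference between microglia and neutrophils, 3 most alike genes per member, and fixed reference genes, of which 1 is not reported here. Alternatives were DESeq2 1.42.0, other scalings, filters, gates and totals, thinned cells and single libraries. Scripts ran in Python 3.11.15 (pandas 2.3.3, numpy 2.4.6, matplotlib 3.10.9, scipy 1.17.1) and R 4.3.3. Whether counting used strand is not given in the sources used here. *Cd82* overlaps *Mir7001* on its own strand, and *Cd81*, *Cd9*, *Cd37*, *Cd82*, *Cd151* and *Tspan4* overlap genes on the opposite strand.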

Additional observations from a re-analysis of the deposited data

Results flagged for a closer look

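For 5 members the counting interval of the single ratio of LI/LI over WT/WT lay above 0 in microglia and below 0 in another class. These differences between classes were not tested, since each class has 1 ratio. How many of all genes split this way was not counted. The median log2 ratio over genes with at least 50 UPM was -0.12 in microglia, -0.36 in neutrophils and -0.02 in other cells. *Cx3cr1* went from 671 UPM in WT/WT neutrophils to 107 UPM in LI/LI neutrophils. In neutrophils with microglia markers under 0.1%, *Cd81* was at 126 UPM in WT/WT and 109 UPM in LI/LI. *Cd81* had a log2 ratio of 0.22 in microglia against -1.65 in neutrophils and -2.39 in other cells. *Cd9* had 0.09 in microglia against -0.32 in neutrophils and -2.20 in other cells. *Cd37* had 0.16 in microglia against -0.40 in neutrophils and -0.54 in other cells. *Cd82* had 0.17 in microglia against -1.12 in other cells. *Cd151* had 0.18 in microglia against -1.29 in neutrophils and -1.13 in other cells.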

How the results depend on the processing

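The number of members higher in LI/LI microglia, 7 of 9, stayed between 7 and 9 under all alternatives. In neutrophils it was 1, and rose to 4 with TMM scaling and to 2 with UPM averaged cell by cell, with cells thinned to 1000 UMIs or with microglia markers under 0.1%. In other cells it was 0, and 1 with TMM scaling. Without TMM scaling, 39.5% of all genes with at least 50 UPM were higher in LI/LI microglia. In neutrophils 30.7% of such genes were higher in LI/LI, and in other cells 48.8%. Some ratios whose main interval excluded 0 changed sign. With TMM these were *Tspan3* in microglia (0.0065), *Cd9* (0.22) and *Cd37* (0.14) in neutrophils and *Cd53* in other cells (0.089). Further ones were *Cd9* in neutrophils averaged cell by cell (1.26e-04) and thinned (0.10). *Cd151* in neutrophils with microglia markers under 0.1% changed too (1.01), on 1 UMI in WT/WT and 102 in LI/LI. *Cd53* in microglia (0.12) and *Cd82* in neutrophils (0.28), whose main intervals included 0, also turned positive with TMM. The TMM changes come from its added constant, and the cause of the others was not tested. Against neutrophils, the count of members called stayed at 4 except for 3 without the replicate block and 6 with library totals. Against other cells it was 7. It fell to 1 without the replicate block and to 4 with microglia and other cells fitted alone (a smaller fit). It also fell to 1 with stricter gates, which place low-marker microglia among the other cells. Over all genes, those 3 fits called 437, 1200 and 490 genes higher in place of 1769. Against neutrophils the fit without the block called 1377 in place of 2783. Smaller changes against other cells came with DESeq2, which ended the calls of *Cd82* and *Tspan3* and added *Cd53*. Library totals added *Cd53*, and the gate of microglia markers under 0.1% added 1 member. No paired analysis was possible between the genotypes because each has 1 library. Of 225 single ratios under alternatives, 152 stayed within their main counting interval and 66 left it. The other 7, with a main interval that excluded 0, changed sign. Sign changes of ratios whose main interval included 0 fall among the 152 and the 66. *Cd151*, *Tspan3* and *Tspan4* in neutrophils rest on at most 22 UMIs in WT/WT, which limits their ratios.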

Other observations

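Within microglia, *Cd81* was lower in cells with more UMIs. Across 4 equal groups of cells from shallowest to deepest its level was 3372, 3353, 3304 and 3188 UPM in WT/WT, and 4045, 3913, 3893 and 3630 UPM in LI/LI. *Cd9* gave 1406, 1445, 1478 and 1505 UPM in WT/WT, while in LI/LI it gave 1561, 1511, 1668 and 1526 UPM with no order. LI/LI was higher than WT/WT for *Cd81* in each group. Few microglia passed a gate on the share of UMIs from disease-associated genes (10 in WT/WT and 7 in LI/LI) or from interferon genes (17 and 7). No member level is given for these cells. Microglia with such transcripts below the gate were not counted.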
